A study of Arabis alpina with 9 samples.

Results

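At the 3-week shoot apex of Arabis alpina, 327 genes were listed by the authors as differing between the eop089 mutant and its control, 242 higher and 85 lower in the mutant. They are all genes of the authors' deposited tables for that apex, which hold genes that differ at least about 2-fold with an adjusted p up to 0.05, out of 34220 gene entries counted in the series. The species is a perennial crucifer from the same family as Arabidopsis thaliana, and the series concerns the part of AaTFL1, its counterpart of the floral repressor TFL1, in flowering. Polyadenylated RNA was sequenced from eop089 plants (accession Pajares) kept in long days, from dissected shoot apices at 3 weeks, from apices at 5 weeks, and from leaves at 5 weeks, with 3 libraries each. All these libraries carry the mutation, which the labels give by line name only. The control enters here as the authors' mean per gene, headed PA3. The sources used here give neither its genotype nor its replicates and their spread. The listed contrast chose these genes, so its values are a description, and no test of it was run.

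The shoot apex holds the meristem and the youngest leaf primordia, which import sugar and amino acids from mature leaves. In Arabidopsis, a shortage of carbon or a period of darkness switches on a known set of genes: asparagine synthetase, enzymes that break down branched-chain amino acids and proline, trehalose phosphate synthase-like proteins, and the dormancy-associated genes first found in buds that do not grow out. The same tissue runs a circadian clock, in which an evening complex of ELF4 and the GARP factor LUX represses genes of the day. TFL1 keeps the meristem vegetative by opposing the florigen FT, and TEM1 represses FT itself.

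The 9 libraries held 11859813 to 13382460 counts in genes, and 22212 to 23176 genes with at least 1 count. The listed genes took 1.33% to 1.45% of the counts at the 3-week apex, 0.599% to 0.707% at the 5-week apex and 2.21% to 2.23% in the leaf. No pair of replicates agreed within counting noise, so each library counts as 1 replicate. The labels do not say whether replicates came from separate plants, so p-values cover only the spread among these libraries, which may be technical. Values per library are given below as normalised counts, CPM scaled to the authors' table, where the mean of the 3 libraries matched the authors' mutant mean to a ratio of 0.999 to 1.00 for 214 genes with a mean of at least 50. Of the marker sets for tissues, only genes named in the deposited lists could be looked up. None of the 11 markers of the shoot meristem was among them. The epidermal gene PDF1 stood at 17300 to 20800 normalised counts at the 3-week apex and 42.2 to 577 in the leaf, and the dividing-cell gene CYCB1;3 at 774 to 845 and 99.3 to 146. The 3 markers of mesophyll that could be looked up summed to 2990 to 4460 at the 3-week apex and to about 247000 to 256000 in the leaf.

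Most of the listed genes were higher in the mutant, and folds were mostly moderate. The median fold was 2.65 over 238 higher genes with a finite fold and 0.393 over 82 lower genes by the authors' deposited table. The median control mean was close for both lists, 60.89 normalised counts for higher and 62.75 for lower genes, and the median mutant mean was 169.65 and 28.29, a gap that the choice by direction fixes, by the authors' deposited table. At least 3-fold differences held for 96 higher and 31 lower genes, and at least 4-fold differences for 52 and 17. Set against the 25446 gene entries with a count in any library, the lists hold 0.951% higher and 0.334% lower, and nothing is read from these shares because the contrast chose the genes. Nearest to the 2-fold limit lay AT3G57020 and HSPRO2 with a fold of 2.0, CYP702A6 with 0.499 and Aa_G493320, slightly short of 2-fold, with 0.501 by the authors' deposited table. The highest adjusted p-values were 0.0477 for a higher gene and 0.0436 for a lower gene by the authors' deposited table. An Arabidopsis gene was paired with 189 of the higher genes (78.1%) and 51 of the 85 lower genes.

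**Figure D1:**
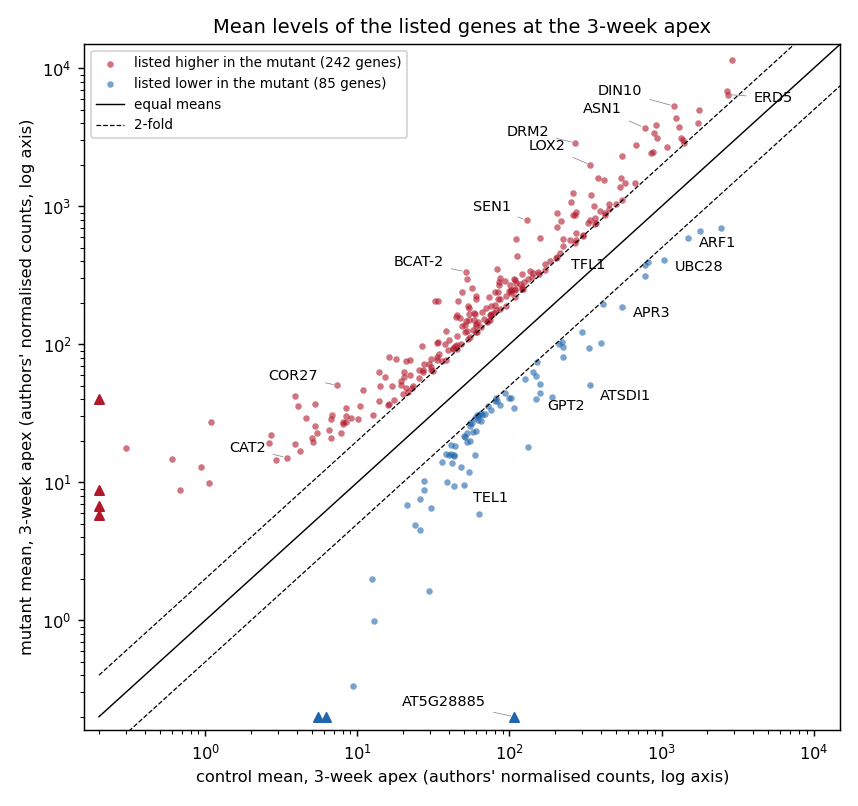
Control mean (horizontal axis) and mutant mean (vertical axis) of the 327 genes at the 3-week apex, in the authors' normalised counts on log axes. Triangles at the axis edge are the 4 higher and 3 lower genes with a mean of 0 in 1 group. Aa_G364660, with a mutant mean of 23763.73 by the authors' deposited table, lies beyond the plotted range. Genes listed higher lie above the 2-fold line, span a wide range of levels, and include DRM2 at 269.05 against 2883.73 by the authors' deposited table, while genes listed lower lie below it and mostly under 100 counts in the mutant.

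The 3 mutant libraries were close to each other for most of these genes. Every library lay above the control mean for 234 of 238 higher genes with a control mean above 0, and below it for all 85 lower genes. In 163 of the higher and 52 of the lower genes every library was at least 2-fold past the control mean. These 3 libraries also chose the genes, so their side of the control mean is largely fixed by that choice. It is given as a description, here and for the genes below. The median coefficient of variation was 10.8% for the 192 higher genes with a mean of at least 50 and 15.6% for the 22 such lower genes. For 15 higher and 5 lower genes, the mean moved by over 1.5 times when 1 library was left out, and replicate 1 was that library for 12 and 2 of them. Replicate 2 was the highest library for 104 of the 242 higher genes and replicate 3 the lowest for 114.

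Genes of amino acid turnover formed one of the largest groups set by hand after the values were seen. It had 11 members listed higher and 3 lower, and of all 327 listed genes 242 were higher. ASN1 (Aa_G41600), the dark-induced asparagine synthetase, stood at 3568, 4131 and 3412 normalised counts in mutant replicates 1, 2 and 3 against a control mean of 774.03, a fold of 4.79 by the authors' deposited table. All 3 libraries were over 4 times the control mean. BCAT-2 (Aa_G171360), a branched-chain aminotransferase, stood at 333, 431 and 243 against 51.74, a fold of 6.49 by the authors' deposited table. Its replicate 2 was the highest and replicate 3 the lowest, and none came near the control mean. Further down the breakdown of branched-chain amino acids, MCCA (Aa_G228330), the alpha subunit of methylcrotonyl-CoA carboxylase, stood at 1394, 1494 and 1254 against 531.5 by the authors' deposited table. AT1G21400 (Aa_G374470), annotated as a branched-chain oxo-acid dehydrogenase subunit, had a fold of 2.77 by the authors' deposited table. All 3 of these enzymes of one breakdown route were listed higher, and enzymes of the route that were not listed are not counted here.

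Proline, threonine and tyrosine breakdown were represented as well. ERD5 (Aa_G534650), the proline dehydrogenase that starts proline breakdown, stood at 6680, 7076 and 5597 normalised counts against a control mean of 2736.41, a fold of 2.36 by the authors' deposited table. A second gene annotated with proline dehydrogenase activity, AT5G38710 (Aa_G421540), had a fold of 2.19 by the authors' deposited table. THA1, a threonine aldolase, stood at 222, 232 and 206 against 72.91, with libraries within a narrow range, by the authors' deposited table. PDS1, the hydroxyphenylpyruvate dioxygenase of tyrosine metabolism, had a fold of 2.26 by the authors' deposited table. Within the whole group of 14 genes, replicate 2 was the highest library for 13 and replicate 3 the lowest for 11. The 3 lower genes were GDU4, named for glutamine export, at 0.325 of the control, the amino acid transporter gene AT3G56200 at 0.43 and the glutamate decarboxylase gene GAD4 at 0.484 by the authors' deposited table.

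Sugar and starch metabolism, a group set by hand after the values were seen, had 13 higher and 2 lower genes. Of all 327 listed genes 242 were higher. On a separate list of 24 genes of sugar transport and starch 3 were listed, BMY3 higher and GPT2 and GolS1 lower. DIN10 (Aa_G68090), a dark-inducible gene of the raffinose synthase family, stood at 5660, 5739 and 4572 normalised counts against a control mean of 1204.61, a fold of 4.42 by the authors' deposited table. BMY3 (Aa_G33740), of the beta-amylase family of starch breakdown, stood at 3472, 3622 and 3129 against 886.86, a fold of 3.84 by the authors' deposited table. Every library of both genes was more than 3 times the control mean. The inositol oxygenase genes MIOX4 and MIOX2 had folds of 4.24 and 3.49 by the authors' deposited table, and MIOX4 had replicates at 344, 362 and 355 where MIOX2 spread more, at 1200, 1390 and 1019. TPS9 and TPS11, class II members of the trehalose phosphate synthase family, had folds of 2.19 and 2.08 by the authors' deposited table. TPS9 stood at 3021, 3038 and 3007, so its libraries were nearly level. The lower genes were GPT2 (Aa_G706910), a plastid glucose-6-phosphate translocator, at 38.4, 36.1 and 46.1 against 149.78, and the galactinol synthase gene GolS1 at 0.417 of the control by the authors' deposited table.

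The genes of these groups overlap with a list of 24 dark-induced and amino acid genes from Arabidopsis, of which 10 were listed here, all higher. Besides those above it holds SEN1 (Aa_G376370), a gene induced by darkness and senescence, at 731, 952 and 690 normalised counts against a control mean of 130.07, a fold of 6.08 by the authors' deposited table. It also holds BGAL4, a beta-galactosidase with a fold of 2.08, and bt2, a BTB-TAZ scaffold protein with 2.01, by the authors' deposited table. Across all 327 genes 242 are higher, and this list was put together with earlier results of these data known, so its direction is not independent evidence.

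**Figure D2:**
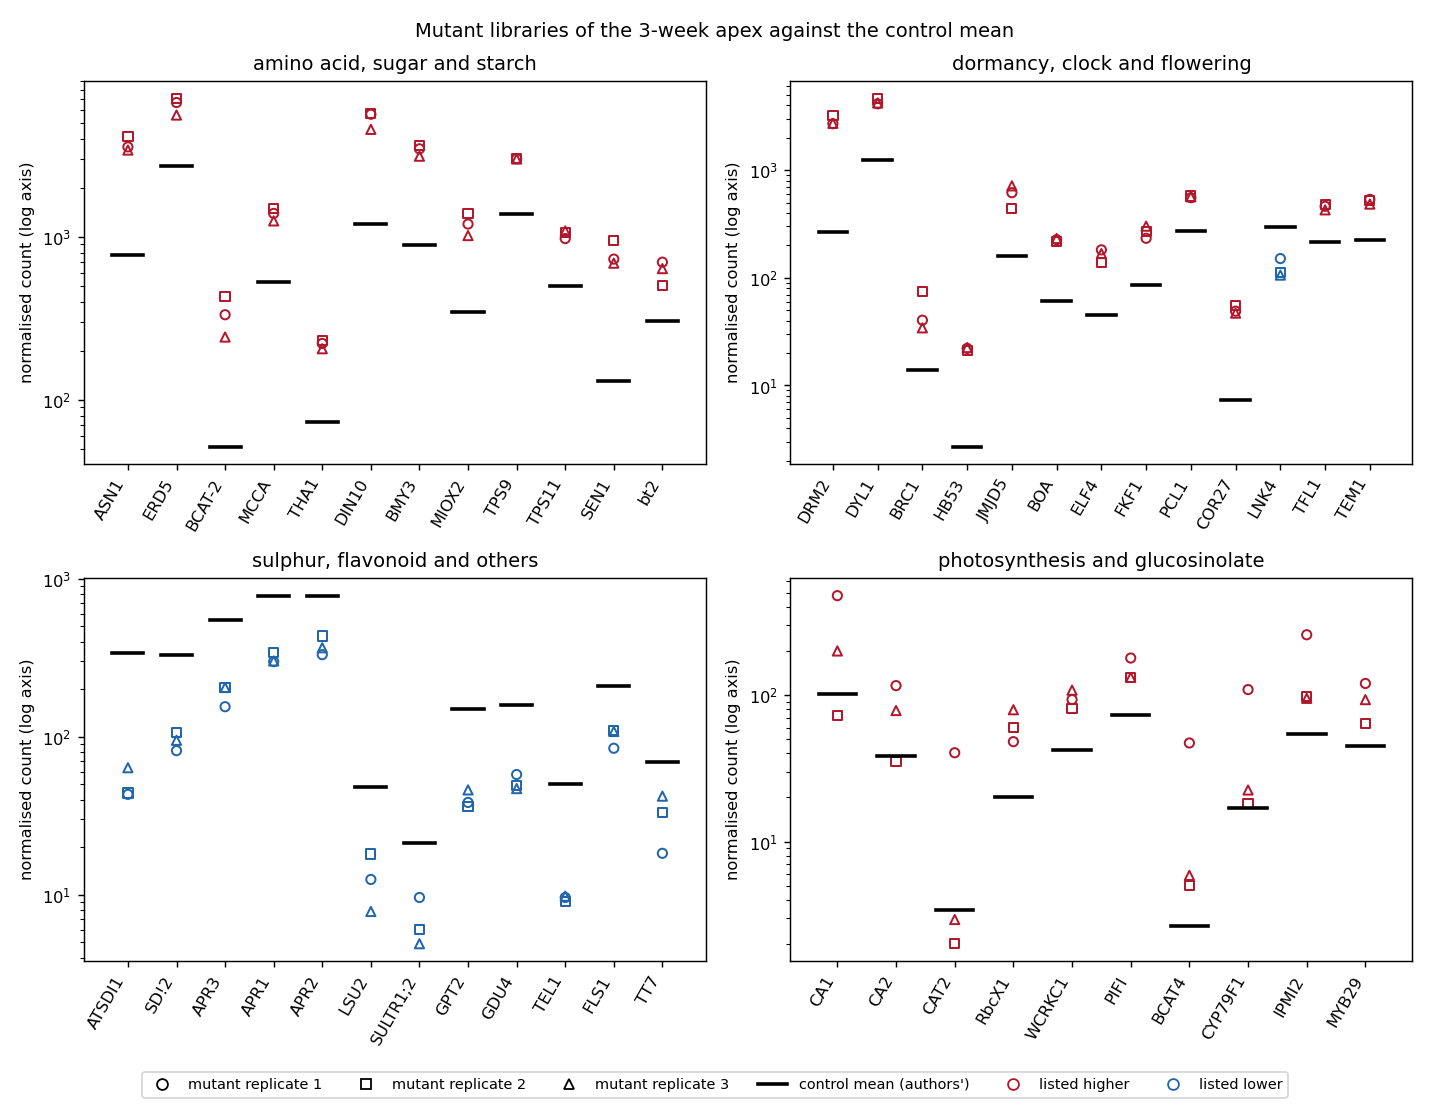
Normalised counts (log axis) of named genes in mutant replicates 1 (circles), 2 (squares) and 3 (triangles) of the 3-week apex, with the authors' control mean as a black bar; red genes were listed higher and blue genes lower. The libraries of ASN1, DRM2 and APR3 sit close together and away from the bar, whereas for CAT2, BCAT4 and CYP79F1 replicate 1 stands far above replicates 2 and 3.

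Of 7 marker genes of bud dormancy on a list, 4 were listed, all higher in the mutant, as were 242 of all 327 listed genes. That list was put together with earlier results of these data known. DRM2 (Aa_G438760), a dormancy-associated gene, stood at 2702, 3224 and 2724 normalised counts against a control mean of 269.05, a fold of 10.72 and the largest among genes with an Arabidopsis counterpart and a mean of at least 50 by the authors' deposited table. Its relative DYL1 (Aa_G430660) stood at 4136, 4640 and 4208 against 1245.29, a fold of 3.48 by the authors' deposited table. BRC1 (Aa_G104730), the TCP factor that holds back axillary branches, was low in both groups, at 40.4, 75.2 and 34.3 against 14.01 by the authors' deposited table. HB53, a homeodomain-leucine zipper gene that acts with BRC1 in Arabidopsis buds, stood at 22.1, 21.1 and 22.5 against 2.71 by the authors' deposited table. Every library of these 4 genes was above its control mean. AT1G56220, another gene of the dormancy-associated family, had a fold of 2.8 by the authors' deposited table. In bulk tissue a different number of cells of a type and a different amount of RNA per cell cannot be told apart, here and below.

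Adapters of protein degradation went the same way. The 5 listed genes of the BTB-TAZ and KMD families were all higher, with folds of 2.01 to 4.33 by the authors' deposited table. Of all 327 listed genes 242 were higher, and family members that were not listed are not counted here. The BTB-TAZ gene bt1 stood at 1246, 670 and 753 normalised counts against a control mean of 205.29 by the authors' deposited table, with replicate 1 the highest. KMD1, a kelch F-box protein that targets cytokinin response regulators in Arabidopsis, stood at 1590, 1667 and 1426 against 416.49, and KMD4 had a fold of 2.56, by the authors' deposited table. None of the 13 genes of the cytokinin list was itself listed.

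Of 11 evening genes of the clock on a list, 4 were listed, all higher. Listed as well were 1 higher and 1 lower of 13 morning genes and 3 higher of 13 genes of clock output and cold. Of all 327 listed genes 242 were higher. BOA (Aa_G28220), a GARP factor related to LUX, stood at 226, 219 and 232 normalised counts against a control mean of 60.45, a fold of 3.73 by the authors' deposited table. ELF4 (Aa_G224250), of the evening complex, stood at 182, 139 and 168 against 45.02, and LUX, printed as PCL1 (Aa_G656930), at 555, 576 and 566 against 272.57 by the authors' deposited table. FKF1, the blue-light F-box receptor of the photoperiod pathway, stood at 233, 270 and 302 against 85.74 by the authors' deposited table. Every library of these 4 genes was above the control mean, and so were those of JMJD5, a clock-associated histone demethylase gene, at 618, 442 and 715 against 158.85 by the authors' deposited table. COR27 and COR28, cold-regulated repressors within the clock, had folds of 6.86 and 2.83, and the MYB-like factor gene RVE2 one of 2.47, by the authors' deposited table. LNK4 (Aa_G672360), named as a light-inducible clock gene, was the lower gene of the group, at 151, 112 and 106 against 298.51 by the authors' deposited table. The sources used here do not give the hour of harvest.

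Of 23 flowering regulators on a list, 2 were listed, both floral repressors and both higher. TFL1 (Aa_G789610) stood at 462, 483 and 428 normalised counts against a control mean of 215.61, a fold of 2.12 by the authors' deposited table. TEM1 (Aa_G596330) stood at 536, 525 and 484 against 225.85, a fold of 2.28 by the authors' deposited table. In both genes all libraries were close to 2 times the control mean or above it. Whether the count table assigns reads of close TFL1 relatives to this entry was not tested.

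All 7 listed genes of sulphur nutrition, a group set by hand after the values were seen, were lower in the mutant. Of all 327 listed genes 85 were lower. ATSDI1 (Aa_G138960), induced by sulphur deficiency in Arabidopsis, stood at 43.2, 44.1 and 63.7 normalised counts against a control mean of 340.86, 0.148 of the control by the authors' deposited table. Its relative SDI2, printed as SD!2 (Aa_G477790), stood at 81.7, 106 and 95.0 against 331.42 by the authors' deposited table. Each library of both genes was under a control mean more than 3 times as high. The APS reductases, the step that commits sulphate to reduction, were APR3 (Aa_G117440) at 155, 204 and 205 against 548.54, APR1 at 299, 340 and 302 against 774.94 and APR2 at 331, 434 and 366 against 782.09 by the authors' deposited table. LSU2, also named for its response to low sulphur, and the sulphate transporter gene SULTR1;2 were low, with mutant means of 12.8 and 6.84 and at 0.267 and 0.321 of the control by the authors' deposited table. Of a list of 14 sulphur genes 6 were listed, and no sulphur gene was listed higher. The 3 APS reductases are close relatives, and the sources used here do not say how reads shared between them were counted.

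**Figure D3:**
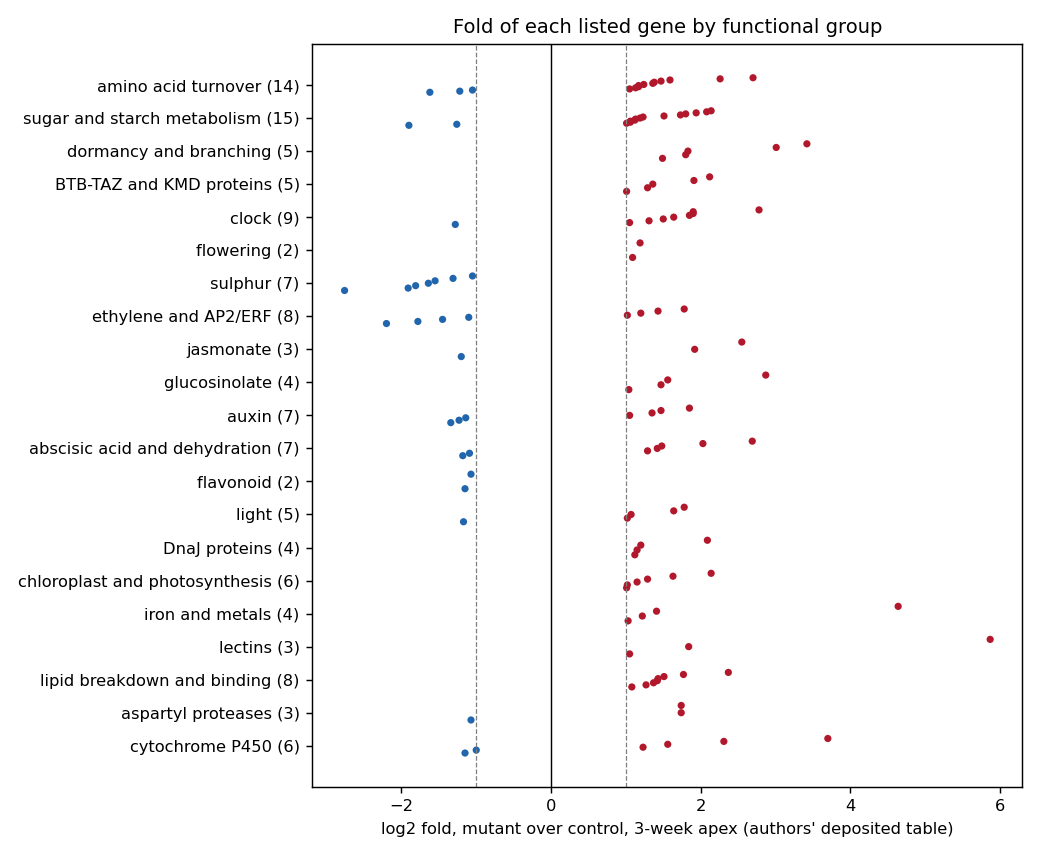
Log2 fold of each listed gene, mutant over control at the 3-week apex by the authors' deposited table, by functional group with the number of members in parentheses; dashed lines mark 2-fold. Sulphur genes lie only to the left, from 0.148 to 0.482 of the control, dormancy, BTB-TAZ and KMD, lipid and photosynthesis genes only to the right, and the ethylene and AP2/ERF group is split.

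Hormone genes went both ways. Among ethylene and AP2/ERF genes 4 were higher and 4 lower. The ethylene receptor gene ERS1 stood at 1074, 1079 and 980 normalised counts against a control mean of 454.31 by the authors' deposited table. The 4 lower genes were all ERF-type factors of stress responses, with ERF6 at 0.217, ORA47 at 0.292, ERF105 at 0.366 and ERF104 at 0.466 of the control by the authors' deposited table, and their mutant means were low, between 7.51 and 30.69. The ACC oxidase-like gene AT1G12010 had 51.9 in replicate 1 against 12 and 18.6, and without replicate 1 its mean moved from 27.5 by the authors' deposited table to 15.3 normalised counts.

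Jasmonate synthesis held a large change in LOX2 (Aa_G49590), the chloroplast lipoxygenase, at 1565, 1702 and 2717 normalised counts against a control mean of 340.41, a fold of 5.86 by the authors' deposited table. Its highest library was replicate 3, and the lowest was still over 4 times the control mean. AOC2, an allene oxide cyclase, had a fold of 3.79 and LOX4 stood at 0.435 of the control by the authors' deposited table. Both had mutant means under 25, and AOC2 moved from 19.43 by the authors' deposited table to 12.8 without replicate 1.

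Auxin genes were split 4 to 3. IAA29, an Aux/IAA gene that answers to shade and auxin, stood at 80.7, 70.2 and 74.5 normalised counts against a control mean of 20.82 by the authors' deposited table. IAA1 had a fold of 2.08, the auxin-induced organ size gene ARGOS 2.55 and the auxin conjugate hydrolase gene ILL5 2.78 by the authors' deposited table. Lower were ARF1, an auxin response factor, at 623, 601 and 542 against 1490.43 by the authors' deposited table, the auxin synthesis gene YUC6 at 0.454 and SAUR78 at 0.428 of the control. GA2OX2, which inactivates gibberellins, stood at 243, 258 and 233 against 103.1 by the authors' deposited table, and it was the listed gene of 15 on the gibberellin list. Abscisic acid and dehydration genes numbered 5 higher, among them NAC019 with a fold of 6.46 and the phospholipase gene PLC1 with 2.78, and 2 lower, the receptor gene PYL6 at 0.47 and the kinase gene SNRK2-8 at 0.443 by the authors' deposited table. None of the 22 core genes on the abscisic acid list was listed.

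Of 22 glucosinolate genes on a list 4 were listed, and of 14 photosynthesis genes 3, all higher, as were 242 of all 327 listed genes. Replicate 1 was far above the other libraries for several of these glucosinolate and photosynthesis genes. The 4 glucosinolate genes were BCAT4 and IPMI2, of methionine chain elongation, CYP79F1, which makes the aldoximes, and the regulator MYB29, with folds of 7.32, 2.76, 2.95 and 2.05 by the authors' deposited table. For all 4, the highest library was replicate 1. BCAT4 stood at 47.1, 5.02 and 5.88 normalised counts against a control mean of 2.64 by the authors' deposited table, and without replicate 1 its mean was 5.45. CYP79F1 stood at 109, 18.1 and 22.5 against 16.84 by the authors' deposited table, and its mean without replicate 1 was 20.3. IPMI2 stood at 258, 97.3 and 95.0 against 54.22 by the authors' deposited table, and without replicate 1 at 96.2. MYB29 was steadier, at 120, 64.2 and 93.1 against 45.04 by the authors' deposited table.

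The 6 listed chloroplast and photosynthesis genes had folds of 2.01 to 4.4 by the authors' deposited table. CA1 (Aa_G593160), the chloroplast carbonic anhydrase, stood at 477, 72.2 and 200 normalised counts against a control mean of 102.15 by the authors' deposited table, so replicate 2 lay below that mean, and without replicate 1 its mean fell from 250 to 136 normalised counts. CAT2, the catalase of photorespiration, stood at 40.4, 2.01 and 2.94 against 3.43 by the authors' deposited table, and without replicate 1 its mean was 2.47, below the control. CA2 had one library, at 35.1, under its control mean of 38.12 by the authors' deposited table. PIFI and the thioredoxin-like gene WCRKC1, both chloroplast proteins, and RbcX1, an assembly factor of Rubisco, had every library above the control mean. Of the 6 genes, replicate 1 was highest for 4 and replicate 3 for 2, RbcX1 and WCRKC1. In the 5-week leaf CA1 stood at 124854 to 131860 and CAT2 at 9243 to 10466. Of 9 markers of mesophyll and photosynthesis 3 could be looked up. CA1 and CAT2 were listed, whereas LHCB2.1, a light-harvesting protein gene, was not listed at this age and stood at 3940, 3480 and 2790. The part of leaf tissue in the glucosinolate and photosynthesis values of replicate 1 was not tested.

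The 8 listed genes of a lipid group, set by hand after the values were seen, were all higher, as were 242 of all 327 listed genes. ACBP3, an acyl-CoA-binding protein, stood at 703, 732 and 687 normalised counts against a control mean of 206.74 by the authors' deposited table. GDPD2, a glycerophosphodiester phosphodiesterase, stood at 677, 632 and 417 against 111.0 by the authors' deposited table, with replicate 3 the lowest. SDP1, the lipase that starts oil breakdown in seedlings, had a fold of 2.11, and the monoacylglycerol lipase gene MAGL6 2.67, by the authors' deposited table. Of 14 flavonoid genes on a list 2 were listed, both lower. The flavonol synthase gene FLS1 stood at 84.6, 109 and 108 against 210.72 and TT7, flavonoid 3'-hydroxylase, at 18.3, 33.1 and 42.1 against 69.39 by the authors' deposited table.

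Listed genes of smaller groups, set by hand after the values were seen, were mostly higher, as were 242 of all 327 listed genes. On separate lists, 2 of 27 genes of light and shade were listed, 1 higher and 1 lower. Of 22 iron and copper genes 1 was listed, higher. The 4 DnaJ co-chaperone genes were led by J8, at 2320, 2521 and 2124 normalised counts against a control mean of 545.48 by the authors' deposited table. The ferritin gene FER1, which stores iron, stood at 709, 882 and 776 against 338.33, and the vacuolar iron transporter-like gene VTL2 had a fold of 2.66, by the authors' deposited table. Mannose-binding lectin genes numbered 3, all higher, among them the myrosinase-binding gene MBP1 at 2682, 2962 and 3016 against 1393.72 by the authors' deposited table. The next ID after MBP1, Aa_G364660, had the highest mutant mean of all listed genes, 23763.73 against 11653.82 by the authors' deposited table. Light signalling genes numbered 4 higher and 1 lower, with the phytochrome-interacting bHLH gene UNE10 at a fold of 3.43, PKS4, a phytochrome kinase substrate gene of phototropism, at 3.11 and the B-box gene BBX28 at 0.443 by the authors' deposited table.

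The largest finite fold of all belonged to a weakly expressed lectin gene, AT5G35940 (Aa_G602140), at 8.65, 14 and 30.4 normalised counts against a control mean of 0.302 by the authors' deposited table. HIPP20, of a family of metal-binding proteins, had a fold of 24.94 with a mutant mean of 27.23 by the authors' deposited table. Other genes with high folds were outside these groups. The CBS-domain gene AT1G15330 (Aa_G121300) stood at 201, 225 and 196 normalised counts against a control mean of 33.87 by the authors' deposited table. AT2G32150, a hydrolase of the haloacid dehalogenase family, stood at 259, 396 and 229 against 52.59, and MEE14, named for embryo arrest, at 217, 273 and 231 against 48.99 by the authors' deposited table. No library of these genes overlapped the control mean. Among lower genes TEL1 (Aa_G83280), a Mei2-like RNA-binding protein gene of the shoot meristem, stood at 9.61, 9.03 and 9.80 against 50.14 by the authors' deposited table, and it was the listed gene of 20 on the meristem and organ identity list. The purple acid phosphatase gene PAP23 stood at 0.266, the malate transporter family gene AT1G08440 at 0.366 and AT4G24110, of unknown function, at 0.375 of the control by the authors' deposited table. On other lists, no gene was listed for the cell wall (21 genes), the epidermis and cuticle (19), the cell cycle (12) or heat shock and touch (11), and these lists cover only named core genes.

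At the 5-week apex 37 of the 242 higher genes (15.3%) were listed higher again and none lower, and 23 of the 85 lower genes (27.1%) were listed lower again and none higher. These are 56.1% of the 66 genes listed higher at that age and 46% of the 50 listed lower, whose lists hold 0.259% and 0.196% of the gene entries with a count. In the leaf 39 higher genes (16.1%) and 29 lower genes (34.1%) were listed again in the same direction, while 8 (3.31%) and 3 (3.53%) were listed the opposite way. They make up 9.82% of the 397 genes listed higher and 3.62% of the 801 listed lower in the leaf, lists that hold 1.56% and 3.15% of the entries. The 3-week lists alone held 172 higher genes (71.1%) and 39 lower genes (45.9%). A gene missing from a list was not tested for a difference between settings.

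The groups differed in where they were listed again. Of the 9 clock genes 8 were listed again at the 5-week apex and none in the leaf. In the mutant leaf JMJD5, FKF1, ELF4, COR27, COR28 and RVE2 had means of only 5.37 to 13.9 normalised counts, and BOA and PCL1 47.9 and 79.9. At levels as low as those of the former a difference is hard to list, so their absence is not read as a lack of one. This does not cover BOA, PCL1 or LNK4, and LNK4 was higher in the mutant leaf than at the 5-week apex. At the 5-week apex COR27 had a fold of 37.86, JMJD5 9.08, ELF4 6.65 and FKF1 4.93, and LNK4 stood at 0.441 by the authors' deposited table. The COR27 fold rests on low and uneven libraries, at 51.3, 4.92 and 28.2 normalised counts in mutant replicates 1, 2 and 3 of that apex. Of the 7 sulphur genes none was listed again at the 5-week apex and 5 were in the leaf, with ATSDI1 at 0.257, SD!2 at 0.306, APR3 at 0.333, LSU2 at 0.375 and APR2 at 0.41 of the control by the authors' deposited table. Ethylene and AP2/ERF genes followed the same course, with none of 8 at the 5-week apex and 6 in the leaf. Of 15 sugar and starch genes 2 were listed again at the 5-week apex and 2 in the leaf, and of 14 amino acid genes 1 and 3.

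**Figure D4:**
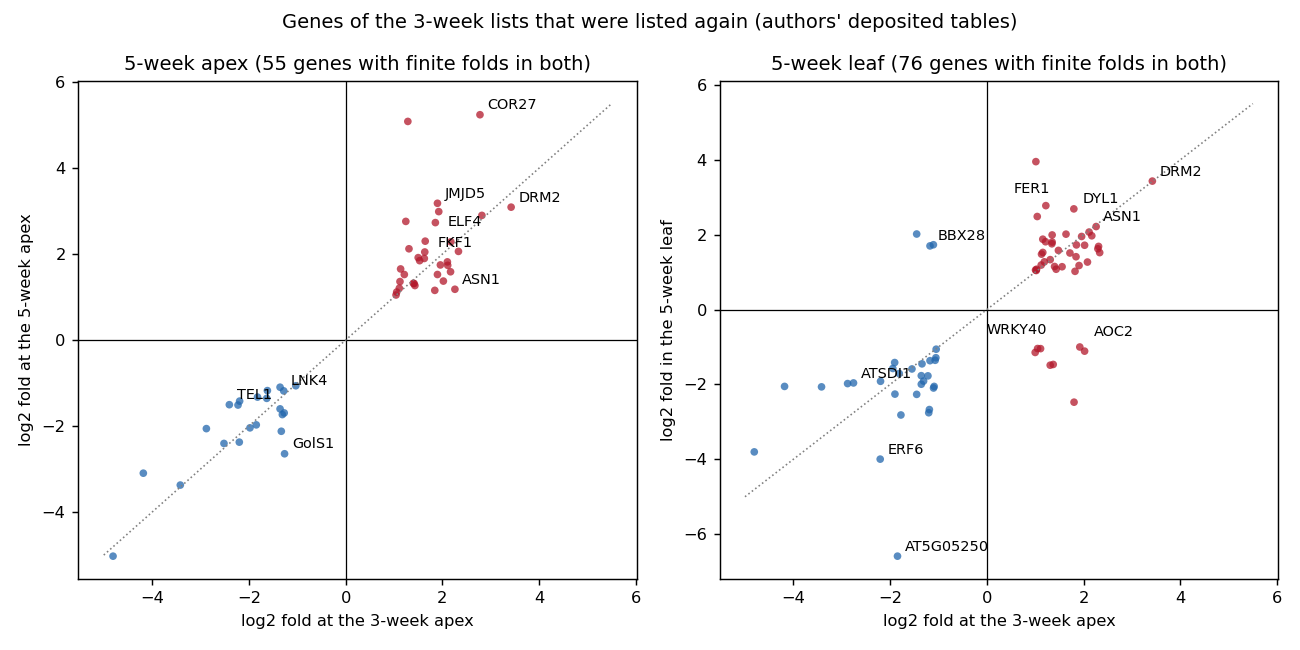
Log2 folds of genes of the 3-week lists that were listed again, with the 3-week apex on the horizontal axis and the 5-week apex (left, 55 genes) or 5-week leaf (right, 76 genes) on the vertical axis, from the authors' deposited tables; the dotted line marks equal folds. At the 5-week apex every gene kept its direction, and in the leaf 11 genes, WRKY40, AOC2 and BBX28 among them, lie in the quadrants of opposite direction.

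In all 3 settings 14 higher and 9 lower genes were listed. The acyl-transferase family gene AT5G01210 (Aa_G490120) stood at 2965, 2713 and 2650 normalised counts at the 3-week apex against a control mean of 683.33, and its folds were 4.06 there, 2.59 at 5 weeks and 3.29 for leaves by the authors' deposited tables. The CCT-domain gene AT1G07050 (Aa_G663690), of a family that includes regulators of flowering, had folds of 3.89, 3.36 and 3.87, and the lectin gene AT1G52000 folds of 3.59, 2.23 and 2.66, by the authors' deposited tables. AT1G62660, a vacuolar invertase family gene, had folds of 2.18, 2.57 and 2.28, and AT3G62550, of the universal stress protein family, folds of 2.64, 2.5 and 2.22, by the authors' deposited tables. DRM2, ASN1 and PKS4 also belong here. WRKY40, a transcription factor gene of defence, had folds of 2.16 and 2.31 at the apices and 0.485 in the leaf, and the chitinase family gene AT2G43590 folds of 2.48, 4.36 and 0.357, by the authors' deposited tables. UBC28, a ubiquitin-conjugating enzyme, was among the 9 lower genes, at 432, 373 and 415 normalised counts against a control mean of 1042.16 by the authors' deposited table. AT5G05250, of unknown function, stood at 0.278, 0.255 and 0.0104, and the glycosyltransferase gene AT2G41640 at 0.404, 0.301 and 0.266 of the control by the authors' deposited tables.

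Within the mutant, genes listed higher at 3 weeks were mostly lower at the 5-week apex than at the 3-week apex. Of 238 such genes with enough counts 186 fell (78.2%) and 7 rose at a Benjamini-Hochberg adjusted p of 0.05 (edgeR, quasi-likelihood test), against 21.0% and 19.1% of all 20633 genes tested. Of 76 tested genes listed lower 43 rose (56.6%) and 6 fell. In all 242 of these genes were called, and 40.1% of the genes tested were called in either direction. With a 2-fold minimum added, chosen after seeing the data, 142 genes listed higher fell, against 4.46% of genes tested. The median log2 change was -1.32 for the former, 0.83 for the latter and 0.01 for all genes. The 3-week mutant libraries also chose these genes, so the directions are not independent of the choice and are given as a description.

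DIN10 stood at 865, 530 and 906 normalised counts at 5 weeks, below all its 3-week values, a log2 change of -2.79 (SE 0.15, edgeR adjusted p = 3.26e-09). ASN1 stood at 425, 266 and 379, a log2 change of -3.37 (SE 0.33, edgeR adjusted p = 1.44e-06). THA1 was at 2.85, 7.86 and 10.7, a log2 change of -4.92 (SE 0.24, edgeR adjusted p = 1.22e-09). Of the 14 amino acid genes 12 fell and 2 rose, of the 15 sugar and starch genes 12 fell and 1 rose, and all 8 lipid genes fell. Among all tested genes listed higher 78.2% fell and 2.94% rose, so these counts are not read as traits of the groups. As the 3-week libraries also chose these genes, the adjusted p-values are a description. DRM2 stood at 658, 266 and 366, below all its 3-week values (log2 change -2.74, SE 0.25, edgeR adjusted p = 7.85e-07), and BRC1, at 36.1, 46.2 and 44.8, did not pass (edgeR adjusted p = 0.621).

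All 6 sulphur genes tested rose between 3 and 5 weeks, with a median log2 change of 1.38, and 56.6% of all tested genes listed lower rose. The 3-week libraries also chose these genes, so the adjusted p-values here and for the clock genes below are a description. SD!2 stood at 189, 496 and 371 normalised counts at 5 weeks, above every 3-week library (log2 change 1.90, SE 0.29, edgeR adjusted p = 9.2e-05). APR1 stood at 354, 940 and 802 (log2 change 1.15, SE 0.24, edgeR adjusted p = 0.00136). At this age replicate 1 was the lowest library for all 7 sulphur genes and replicate 2 the highest for 6. FLS1 and TT7 rose as well, FLS1 to 385, 340 and 343. FER1, at 1236, 1168 and 1432, was one of 7 genes listed higher that rose (log2 change 0.70, SE 0.10, edgeR adjusted p = 4.95e-05).

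Against 78.2% of all tested genes listed higher, 7 of the 9 clock genes fell, and LNK4 rose. At 5 weeks replicate 1 was the highest library for 6 of them and replicate 2 the lowest for 7. JMJD5 stood at 515, 89.5 and 184 at that age, a wider spread than its 442 to 715 at 3 weeks (log2 change -1.17, SE 0.36, edgeR adjusted p = 0.0171), and its call was lost without 3-week replicate 3 (edgeR adjusted p = 0.0753) or 5-week replicate 3 (edgeR adjusted p = 0.078). The call of COR28 (edgeR adjusted p = 0.0374) was lost without replicate 2 or 3 of either age, with edgeR adjusted p-values of 0.0687 to 0.167. LNK4 stood at 154, 661 and 458, with replicate 1 the lowest.

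**Figure D5:**
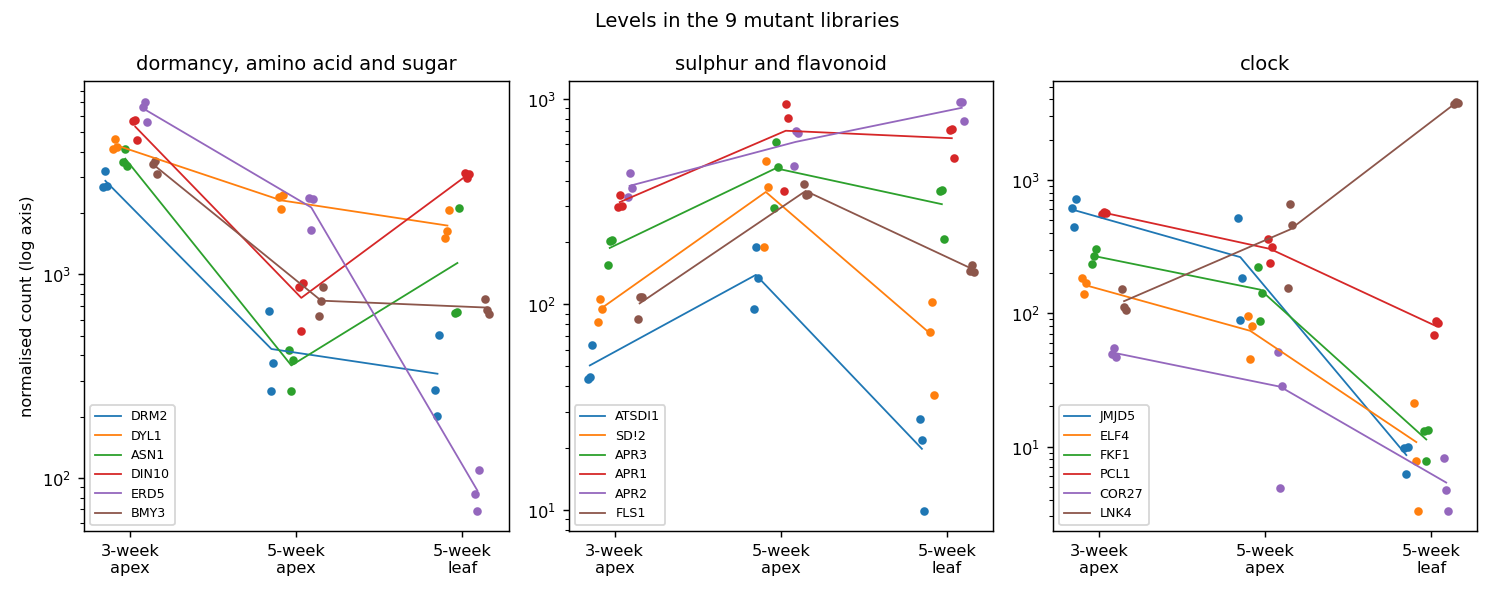
Normalised counts (log axis) of named genes in the 3 libraries each of the 3-week apex, 5-week apex and 5-week leaf of the mutant; points are libraries and lines join the means of a gene. DIN10, ASN1 and BMY3 drop from 3 to 5 weeks, ATSDI1, SD!2, APR1, APR2 and APR3 rise, and the means of the clock genes other than LNK4 are lowest in the leaf.

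The comparison of leaf and apex at 5 weeks shares no library with the choice of these genes. Of 238 genes listed higher 133 (55.9%) were higher in the mutant leaf and 76 (31.9%) lower by the same edgeR test, against 37.1% and 42.0% of all genes tested. Of 76 genes listed lower 20 (26.3%) were higher and 40 (52.6%) lower in the leaf. That makes 269 genes called, against 79.1% of the genes tested in either direction. The median log2 change, leaf over apex, was 0.96, -0.99 and -0.10 for genes listed higher, genes listed lower and all genes. With scaling by total counts, which moved the median of all genes to -0.93, the counts were 110 higher and 105 lower for genes listed higher and 13 and 49 for genes listed lower, against 19.5% and 69.0% of all genes. Membership in these lists is not a random draw, and the shares are read as descriptions of these genes.

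Groups listed in the same direction at the apex had opposite leaf levels. All 6 photosynthesis genes and all 4 glucosinolate genes were higher in the leaf, with median log2 changes of 8.6 and 5.8, and so were LOX2, at 29863 to 30769 against 19.7 to 145, and IAA29, at 1347 to 1471 against 1.95 to 10.8 normalised counts. Of the 9 clock genes 8 were lower in the leaf, with FKF1 at 7.82 to 13.2 against 87.5 to 220 (log2 change -3.72, SE 0.40, edgeR adjusted p = 2.7e-07). By the same test 37.1% of all genes tested were higher in the leaf and 42.0% lower. Among tested genes listed higher 55.9% were higher and 31.9% lower. The groups were picked from 21 set by hand after values were seen, so these counts are not read as traits of the groups. Carbon and amino acid genes were spread in both directions. ERD5 stood at 68.8 to 109 in the leaf against 1656 to 2387 at the apex (log2 change -4.62, SE 0.18, edgeR adjusted p = 4.64e-13), and DIN10 at 2985 to 3157 against 530 to 906 (log2 change 2.00, SE 0.15, edgeR adjusted p = 1.8e-09). TFL1 stood at 212 to 289 normalised counts at the 5-week apex and 0 to 1.64 in the leaf, whereas TEM1 stood at 146 to 194 and 492 to 527.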

How the data were processed

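RNA was sequenced from 3 groups of 3 eop089 libraries. The deposited count table holds raw counts per gene, per the file headers. STAR, HTSeq, DESeq and DESeq2 are named in the submitters' processing notes. The genome build was not given in the sources used here. In each case the authors' deposited lists give each group's mean as a normalised count signal, the fold as a ratio, its log2 value and adjusted p-values. A blank mutant mean was taken as 0.

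Special entries of the count table that name no gene were left out. Counts were scaled by TMM (edgeR 4.0.16, R 4.3.3), and CPM was multiplied by 1 constant to match the authors' means. Ages and organs were compared within the mutant by edgeR's quasi-likelihood test over 20633 genes in 9 libraries, with Benjamini-Hochberg adjustment over all of them. The fit was tested on simulated data. Alternatives were other scaling, no filter, DESeq2 1.42.0, a replicate block, only the groups compared and each library left out.

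The genes and gene lists were chosen with earlier results of these data known, and the 21 functional groups were set by hand after values were seen. Genes were named by these rules: the 10 largest folds in each direction with an Arabidopsis gene and a mean of at least 50, up to 6 genes per list, and those listed in all 3 settings. Other genes named as examples of the hand-set groups, or at the limits of the lists, were chosen after their values were seen.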

Additional observations from a re-analysis of the deposited data

How the results depend on the processing

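At least 3-fold differences held for 96 genes listed higher and 31 listed lower, and a mean over both groups of at least 50 held for 38 listed lower. The 20 genes whose 3-week mean rested on 1 library at 1.5 times were 10 at 2 times. With a 2-fold minimum, chosen after seeing the data, 4 genes listed higher rose and 3 listed lower fell between 3 and 5 weeks. Scaling by total counts left 13 genes listed lower that were higher in the leaf, in place of 20. It turned the leaf against apex log2 change to -0.42 for AT5G01210, -0.12 for AT5G19110, -0.31 for SDP1, -0.38 for bt2, -0.11 for CYP78A6 and EDF3, -0.81 for Aa_G874400, -0.28 for APR2 and -0.82 for PYL6. The cause was not tested.

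With each library left out in turn, 228 to 237 genes differed between ages. Of genes listed higher 5 to 7 rose and 180 to 183 fell, and of genes listed lower 36 to 41 rose and 4 to 8 fell. Between organs 262 to 273 differed. Of genes listed higher 131 to 136 were higher and 73 to 82 lower in the leaf, and of genes listed lower 19 to 21 and 37 to 39.

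With the replicate block 237 genes differed between ages and 271 between organs, against 242 and 269 without it. Correlations of same-numbered libraries lay between -0.0771 and 0.00757. The labels do not say whether same-numbered libraries share plants, a harvest or a run, and these correlations cannot settle it. The control has no libraries here, so the listed contrast could not be recomputed.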

Other observations

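Of the genes listed higher, 53 were paired with no Arabidopsis gene, and 34 of those listed lower. Among these, 12 higher genes (22.6%) and 14 lower genes (41.2%) were listed again at the older apex, and in leaves 6 (11.3%) and 8 (23.5%), counting those in the same direction. Of the lower genes, Aa_G342840 and Aa_G219720 were listed the opposite way in leaves, with folds of 4.05 and 3.32 by the authors' deposited table. Of the 189 higher and 51 lower genes with an Arabidopsis gene, 25 and 9 came back at the older apex, and 33 and 21 in leaves. These differences were not tested.

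In 7 genes the mean was 0 in 1 group. Aa_G514020 was listed at 0 in the control in the authors' deposited table and stood at 52.9, 34.1 and 33.3 normalised counts in the 3-week mutant libraries. AT5G28885 had a control mean of 107.62 in the authors' deposited table and no count in any 3-week mutant library. At 5 weeks it had counts in apex replicate 2 alone among the 6 libraries, at 7.86 normalised counts.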
